A study of Rattus norvegicus with 12 samples.

Results

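The cytosolic ribosomal protein genes encode the proteins of the large subunit (Rpl and Rplp symbols) and of the small subunit (Rps symbols and Rpsa) of the cytoplasmic ribosome. Their probes were chosen by the gene name printed in the scanner files: Rpl or Rps, a number and at most the letters a, x, y or l, or the names Rplp0, Rplp1, Rplp2 and Rpsa. Kinases of the Rps6k family, mitochondrial ribosomal proteins and names marked as pseudogenes were left out, and no measured value entered the choice. The rule gave 82 of the 26214 gene names on the array, read by 152 of 30367 non-control probes. Of these, 98 probes belonged to 50 genes of the large subunit and 54 probes to 32 genes of the small subunit. The probes occupied 170 of 42877 non-control spots, since Rpl15 and Rps4x were each read by a probe printed at 10 places and every other probe was printed once.

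Prefrontal cortex RNA of female rats of the Sprague-Dawley strain was hybridised to 6 Agilent arrays with a Cy3-labelled and a Cy5-labelled sample on each, giving 4 samples in each of 3 groups. Control rats were exposed to saline before birth on gestational day 15 and to saline on postnatal day 14. Betamethasone rats came from dams given 2 injections of 0.4 mg/kg of this synthetic glucocorticoid on gestational day 15 and received saline on postnatal day 14. Betamethasone with ketamine rats had the same prenatal exposure and received 35 mg/kg of ketamine, an NMDA receptor antagonist, on postnatal day 14. Samples were taken on postnatal day 15, although a stage field in the labels gives another age. The labels tie the postnatal injection to rats with infantile spasms, without saying which sampled animals had them. Each array carried 2 samples of the same group. Both control arrays were on a slide of their own, and in any comparison with control the slide cannot be told apart from the exposure. The labels call the samples replicates without describing which came from littermates, so p-values measure the spread between these samples.

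Each cytosolic ribosome needs a copy of nearly every ribosomal protein, and the mRNAs of these proteins are among the most abundant in a cell. Most of them begin with a run of pyrimidines directly at the cap, the 5′ terminal oligopyrimidine tract, through which their translation is regulated together by nutrient and growth signals. In the developing cortex, ribosome production goes with the growth of neurons and glia. Mammalian genomes hold many processed pseudogenes of these genes. A probe for a ribosomal protein mRNA can therefore also bind near-identical copies, and the signal of a probe is given here for the probe, not for a single locus.

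The pairs of near-identical probes show how little separates some of the probes of a gene. The probes shown are from the array's design file, with coordinates on the rn4 build, and capitals mark the bases at which the probes of a pair differ where they overlap. The Rpl36a probes have intervals within chrX:122042681-122043811 on the plus strand, each longer than a probe. The Rpl37 probes lie within chr2:54302379-54303021 on the plus strand, with intervals also longer than a probe. The Rpl35 probes lie within chr3:18790559-18790627 on the minus strand.
Rpl36a A_64_P033785: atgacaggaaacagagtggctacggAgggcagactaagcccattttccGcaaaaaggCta
Rpl36a A_64_P057533: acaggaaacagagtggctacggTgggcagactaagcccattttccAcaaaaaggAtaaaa
Rpl37 A_64_P032688: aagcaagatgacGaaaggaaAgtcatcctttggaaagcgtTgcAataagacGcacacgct
Rpl37 A_64_P052952: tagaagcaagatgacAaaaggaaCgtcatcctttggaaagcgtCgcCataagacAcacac
Rpl35 A_64_P108102: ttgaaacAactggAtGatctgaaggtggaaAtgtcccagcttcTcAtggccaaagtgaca
Rpl35 A_64_P374794: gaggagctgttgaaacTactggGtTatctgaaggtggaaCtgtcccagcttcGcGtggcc
The Rpl36a probes match at 54 of 57 overlapping bases and differ by A26T, G49A and C58A, counted from the 5′ end of the first probe of the pair. The Rpl37 probes match at 52 of 57 and differ by G13A, A21C, T41C, A44C and G52A, and the Rpl35 probes match at 45 of 51. The Rpl37a probe A_64_P123277, on the minus strand at chr5:146450833-146450892, is shown because it had the lowest ketamine estimate of the members.
Rpl37a A_64_P123277: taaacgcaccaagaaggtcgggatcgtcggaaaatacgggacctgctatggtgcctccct

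The members shared features that the rule did not use. The polyadenylation hexamer AATAAA, searched on the probe strand only, was present in 40 of the 152 probes (26.3%) and in 2547 of the 30367 probes on the array (8.39%). The GC content of the probes had a median of 45.0% both among the members and on the whole array. RefSeq start-site sequences (GRCr8) were available for 64 of the 82 genes. A run of at least 8 pyrimidines lay between 10 bases before and 11 bases after the annotated start, on the sense strand, in 37 of the 64 (57.8%), compared with 1991 of 27457 annotated starts (7.25%). The motifs CTTTC or CTTCC, which can be part of such a run, were in this window in 30 of the 64 genes (46.9%) and in 6.21% of all starts, also on the sense strand only. These windows run from 10 bases before to 20 bases after the start, with capitals for the longest pyrimidine run found between 10 bases before and 11 bases after the start, for genes that return in the results.
Rpl37: ggcgtaCTTTCTCTTCCggtctctttggcc
Rpl35: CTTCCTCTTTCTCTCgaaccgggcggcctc
Rpl36a: tataaaCTTCCgttgctgctctagcctctc
Rpsa: ccgcgctaCCCTggaacgggtccgtacggc
Rpl37 and Rpl35 carry runs of 11 and 15 pyrimidines, whereas Rpl36a and Rpsa have runs of 5 and 4 in that shorter stretch. Pyrimidines further downstream are not marked.

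Between 71.4% and 81.5% of the non-control spots were well above background in a sample, and no spot was saturated. Markers of neurons, astrocytes, oligodendrocytes and microglia were well above background in all 12 samples for each listed gene on the array, while all 4 listed choroid plexus genes fell short of this in at least 1 sample. The log2 of the summed signals of the blood markers Hbb and Alas2 spanned 16.14 to 16.89 in control, 16.08 to 17.68 in betamethasone and 13.42 to 17.32 in betamethasone with ketamine. That of oligodendrocyte markers spanned 15.42 to 16.48, 14.56 to 15.78 and 15.12 to 16.20. Their part in the results that follow was not tested. In bulk tissue, fewer cells of a type and less RNA per cell cannot be told apart.

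The ribosomal protein probes were among the brightest on the array. Of 152 probes, 149 were well above background in all 12 samples, and 138 of the 146 tested ones lay above the 75th percentile of the tested probes' means. The values are log2 channel signals after background correction and normalization, and since probes bind with different strength, they set no order among genes. By probe mean, the highest were Rpl41 (17.26, 18.34, 16.86 and 17.62 in control 1 to 4), Rplp0 and Rps29, and the lowest were probes of Rpl36a, Rpl28 and Rpl3l. The odd-numbered samples were read in Cy3 and the even-numbered ones in Cy5, and Rpl41 was higher in the Cy5 sample of every array. The low probes of Rpl36a and Rpl28 have brighter partners in the same gene, whereas Rpl3l had no other probe. Rpl36a had 7.44, 7.51, 7.57 and 7.51 in control with A_64_P085695 but 14.34, 14.37, 14.35 and 14.12 in control with A_64_P142465.

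The paralogs with a restricted tissue stood at the dim end. Rpl3l, a paralog of Rpl3 typical of striated muscle, had 9.39, 8.86, 7.45 and 7.38 in control 1 to 4, and all 8 samples of the other groups lay between 7.68 and 7.84. Only control 1 and 2, which share an array, were high, and the control group spanned both sides of the others. The testis paralog Rpl10l had 9.19, 9.29, 8.88 and 8.91 in control with A_64_P078568, and 9.11 to 9.63 in the other groups. Rpl39l was not well above background in enough samples to be tested, with values from 7.20 to 7.88. The other untested probes, 1 each of Rpl35a, Rps10, Rps15a, Rps3 and Rps6, had only 2 values in a group after spots marked as outliers by the scanner software were left out.

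Betamethasone exposure moved no ribosomal protein probe past the threshold. Each probe was tested with limma (n = 4 against 4 samples, dye as a term, array as a random block), with Benjamini-Hochberg adjustment over all 21533 tested probes and a threshold of 0.05. In betamethasone minus control, 0 of the 146 tested members passed, where 46 of all probes did (0.214%), and in this limma fit 20 members (13.7%) had an unadjusted p under 0.05, compared with 2460 probes in all (11.4%). Of these members 16 were higher, as were 6.63% of all probes at that p, and 4 lower (4.79% of all). The median log2 change of the members was 0.08, with a middle range of −0.08 to 0.22, and that of all probes was 0.03. It was 0.06 over 96 probes of the large subunit and 0.10 over 50 probes of the small subunit. Of the members, 92 (63%) were higher, as were 56.3% of all probes. The samples of the groups did not overlap for 25 members (17.1%) and for 17.5% of all probes, so the members were separated about as often as any probe. Of the 25, 19 were higher (10.3% of all probes) and 6 lower (7.18% of all probes).

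The smallest p-values for betamethasone came from probes of Rpl32, Rpl36a, Rpl17 and Rpsa. Rpl32, a large-subunit protein, was read by A_64_P151985 at 14.21, 14.33, 14.20 and 14.21 in control, 14.68, 14.80, 14.72 and 14.78 in betamethasone and 14.69, 14.89, 14.82 and 14.72 in betamethasone with ketamine. Every exposed sample lay above every control sample, and the exposed groups overlapped each other. The log2 change was 0.51 (SE 0.10; 1.42-fold), with an adjusted p of 0.0758 by limma. The 3 other Rpl32 probes also gave positive estimates, of 0.42, 0.26 and 0.08. Over 31 alternative settings its adjusted p ranged from 0.00301 to 0.841, not counting the deposited value table, as deposited or re-centred, where the direction turned (−0.54, limma adjusted p = 0.0324) along with the median of all probes (−1.10). Leaving out the array of ketamine samples 1 and 2, or 3 and 4, gave limma adjusted p-values of 0.0139 and 0.013 for a change of 0.51. Neither array holds a sample of this comparison, but both enter the estimate of spread that all groups share. The correlation within arrays, estimated over all probes, was 0.251 and 0.275 in these fits, and 0.555 with all 12 samples. Of all probes, 510 and 435 passed in these fits, against 46. The part of this correlation in the p-values was not tested. Leaving out ketamine replicate 1 gave 0.0467 by limma.

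The near-identical Rpl36a probes gave different answers. With A_64_P033785, control 1 to 4 had 13.21, 13.23, 13.90 and 13.64, betamethasone samples had 14.42, 14.32, 14.31 and 14.17, and samples with ketamine had a mean of 14.08 ± 0.11 (SD, n = 4) and a highest value of 14.24. Its log2 change was 0.81 (SE 0.15, limma adjusted p = 0.0758), with no overlap of exposed and control samples. With A_64_P057533, the same samples had 13.73, 13.75, 13.74 and 13.90, then 13.91, 13.75, 13.49 and 13.36, then 13.76, 13.80, 13.69 and 13.53, and the groups overlapped, with a change of −0.15 (SE 0.15, limma adjusted p = 0.752). The 2 remaining Rpl36a probes had changes of 0.06 and −0.06. Without the array of control samples 3 and 4, that of control samples 1 and 2 was the only control array left. In that fit the change of A_64_P033785 was 1.08, with a limma adjusted p of 0.00149. The limma adjusted p was 0.0398 or 0.0432 when the array with ketamine samples 1 and 2, or 3 and 4, was left out.

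Rpl17 and Rpsa likewise had probes with no overlap between exposed and control samples. For Rpl17, a protein at the exit tunnel of the large subunit, A_64_P020642 read 13.07, 13.24, 13.79 and 13.50 in control, and 14.48, 14.29, 14.40 and 14.19 in betamethasone (change 0.94, SE 0.18, limma adjusted p = 0.0758). Its second probe had an estimate of 0.31. Without the array of control samples 3 and 4, which left that of control samples 1 and 2 alone, the first had a limma adjusted p of 0.00818. Without that of ketamine samples 1 and 2, or 3 and 4, the first had 0.0259 and 0.0334 by limma. For Rpsa, the small-subunit protein that doubles as a laminin receptor precursor, A_64_P036631 read 14.20, 13.94, 14.34 and 14.19 in control and 14.76, 14.96, 14.83 and 14.84 in betamethasone (change 0.68, SE 0.15, limma adjusted p = 0.127). The second Rpsa probe had 11.89, 11.18, 12.13 and 11.92 in control and 12.20, 12.66, 12.52 and 12.65 in betamethasone, with a change of 0.73 (SE 0.31) and no overlap between these groups. Both Rpsa probes were thus separated, and neither passed the adjusted threshold. The first Rpsa probe had limma adjusted p-values of 0.031 and 0.0282 when the array with ketamine samples 1 and 2, or 3 and 4, was left out, within a range of 0.00709 to 0.959 over 32 alternatives. In the deposited value table, left out of that range, the Rpsa, Rpl36a and Rpl17 probes turned to −0.36, −0.22 and −0.10.

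**Figure D1:**
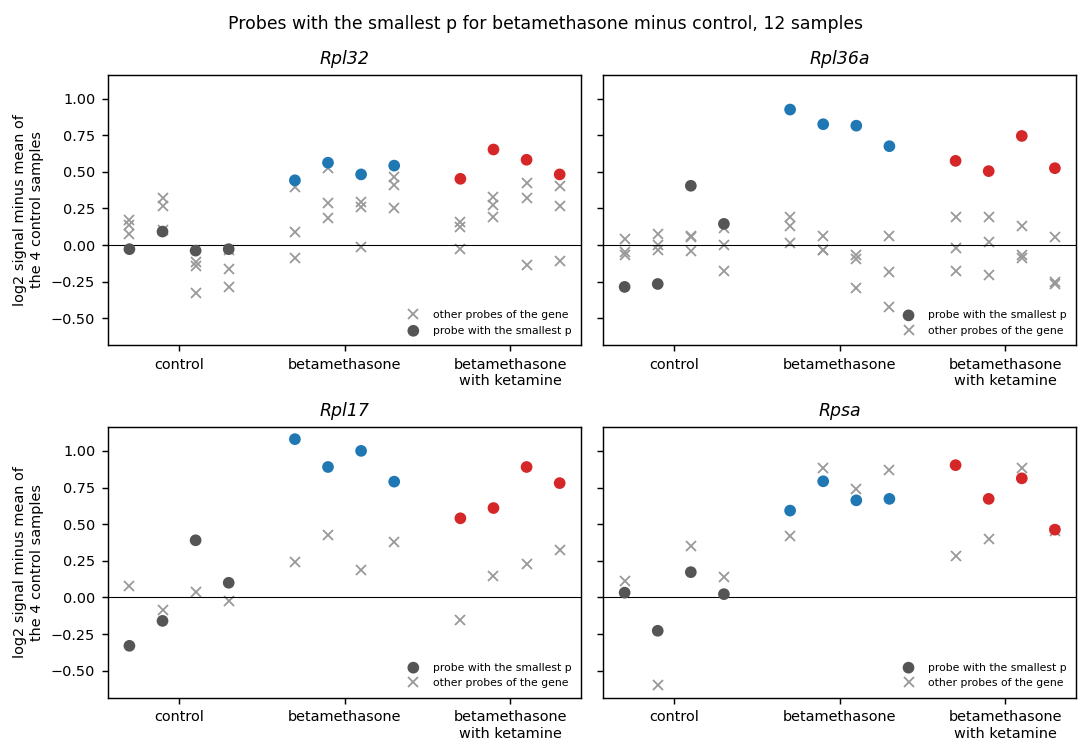
Log2 signal of each probe of Rpl32, Rpl36a, Rpl17 and Rpsa in the 12 samples (y axis, log2 units relative to the probe's mean over the 4 control samples), by group on the x axis. Filled points are the probe with the smallest p for betamethasone minus control, crosses the other probes of the gene. The filled points of exposed samples lie above all control points in each panel, whereas the crosses of Rpl36a stay near 0.

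The Rpl36a and Rpl17 probes lay close together on the array. Spots are addressed by row and column on a grid of 532 rows and 85 columns. The Rpl36a probe lay at row 123, column 40, the Rpl17 probe at row 135, column 42, and an Rpl35 probe, A_64_P031138, at row 132, column 41. On the array of control samples 1 and 2, these spots were 0.91, 1.08 and 1.17 log2 units below the median of the other 5 arrays (departures of −0.91, −1.08 and −1.17). The non-member spots around them had median departures of −0.15, −0.07 and −0.06 on that array. The Rpl35 probe read 15.17, 16.00, 16.48 and 16.58 in control and 16.64 to 16.89 in betamethasone, a change of 0.72, whereas the other Rpl35 probes changed by 0.06, 0.06 and 0.29. One of those, A_64_P056167, shares a run of 50 bases with it. The median change of the non-member spots within 5 rows and 5 columns was 0.17, 0.15 and 0.14 at these 3 positions, above the 0.03 of all probes, and 0.01 around the Rpl32 spot and 0.03 around the first Rpsa spot. The part of position in these changes was not tested.

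Another member with a small p-value for betamethasone, chosen after its values were seen, was Rps25, a protein of the small-subunit head, printed at row 115, column 32. Rps25 had 12.23, 12.00, 12.27 and 11.81 in control and 12.63, 12.52, 12.61 and 12.45 in betamethasone, with no overlap. Its change was 0.47 (SE 0.11), with a limma adjusted p of 0.146. In the other direction, both Rpl14 probes, at distant positions, gave lower estimates, with −0.36 (SE 0.10, limma adjusted p = 0.216) and −0.31 (SE 0.18, limma adjusted p = 0.555), and the betamethasone and control samples of neither overlapped. Rpl6 shows the opposite case: its probes gave −0.49 (SE 0.16) and 0.28 (SE 0.13).

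Ketamine after betamethasone passed the threshold for no ribosomal protein probe, and the 11 lowest estimates belonged to probes with a spot in a compact region of 1 array. In betamethasone with ketamine minus betamethasone, limma called 0 of 146 members and 0 of 21533 probes (0%), while 8 members (5.48%) and 680 probes (3.16%) had an unadjusted p under 0.05. Of these members, 7 were lower (1.33% of all probes) and 1 was higher (1.83% of all probes). The median change of the members was −0.04, against 0.05 for all probes, and 64 members (43.8%) were higher, against 63.2% of all probes. Samples of the groups did not overlap for 9 members (6.16%) and for 4% of all probes, with 4 members higher (2.68% of all probes) and 5 lower (1.32% of all probes). The lowest estimates were those of probes of Rpl37a, Rpl37, Rps16, Rpl30 and Rps15, at −2.79, −1.80, −1.71, −1.60 and −1.49.

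For each of these, ketamine samples 1 and 2 were low and ketamine samples 3 and 4 were not. Rpl37a, a zinc-binding protein of the large subunit, was read by A_64_P123277 at 15.17, 14.97, 15.15 and 14.90 in betamethasone and at 9.50, 9.59, 15.04 and 14.91 with ketamine. Rpl37 with A_64_P052952 had 12.69, 12.55, 12.67 and 12.54 in betamethasone, and 9.04, 9.06, 12.58 and 12.58 with ketamine. The 2 low samples of each probe are the Cy3 and the Cy5 channel of the same array, and the other 2 lay within the range of the betamethasone samples. The estimates carried wide errors, with an SE of 1.18 for Rpl37a and 0.77 for Rpl37, and both had a limma adjusted p of 0.910.

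The members with such values were neighbours on that array. An area was defined as spots around which, within 11 rows by 11 columns, at least 20% of spots were over 1 log2 unit away from the median of the other arrays, with the spot itself counted. Areas held 4.63% of all spots and 11 of the 170 member spots (6.47%) on the array of ketamine samples 1 and 2. On the other arrays they held 2 member spots (control samples 1 and 2), 1 member spot (control samples 3 and 4) or none. The 11 spots lay between rows 238 and 300 and columns 32 and 54, and belonged to Rpl10a, Rpl30, Rpl37, Rpl37a, Rpl38, Rpl7, Rps15, Rps16, Rps19, Rps20 and Rps27a. Their departures ran from −5.48 for Rpl37a to −0.87 for Rpl7, and the medians of the non-member spots around them from −0.73 to −0.30. The members in the area were thus lower than most of the spots around them, although those were low as well.

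**Figure D2:**
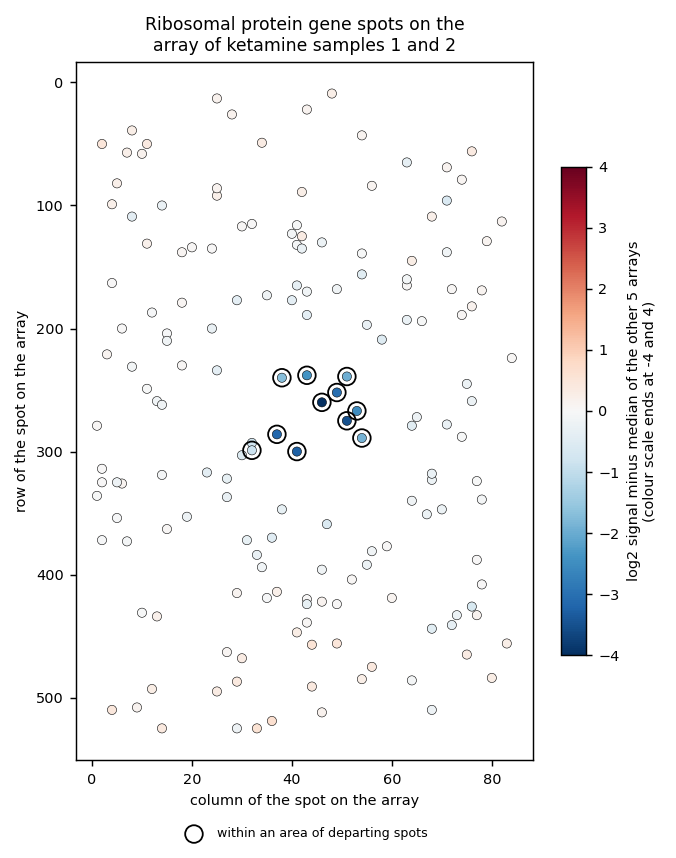
Position (column and row of the spot) of the ribosomal protein gene spots on the array of ketamine samples 1 and 2, coloured by the log2 signal (mean of both samples) minus the median of the other 5 arrays. The 11 circled spots, between rows 238 and 300, lie within an area of departing spots and have departures from −5.48 (Rpl37a) to −0.87 (Rpl7).

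When the array with ketamine samples 1 and 2 was left out, the 11 probes had ketamine estimates from −0.13 to 0.07, each with a limma adjusted p of 1. With it, the same 11 had a median change of −1.27, which restates how they were chosen, since the area was defined by departures on that array. Leaving out the array with ketamine samples 3 and 4 instead kept the array with the area as the only ketamine array. In that fit 18 members passed the threshold, among 2571 probes (11.9%) in all. Those 18 included the 11 of the area, and 13 of them were lower. Leaving out all spots within areas gave a median change of −0.02 over the 132 members that had no spot in an area, against 0.06 for all probes in that fit, and 62 of the 132 were higher. The lowest estimates outside areas were those of Rpl7a (−0.41, SE 0.21), Rps26 (−0.35, SE 0.30) and Rpl29 (−0.33, SE 0.17), each with a limma adjusted p of 0.91 and named after their values were seen.

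**Figure D3:**
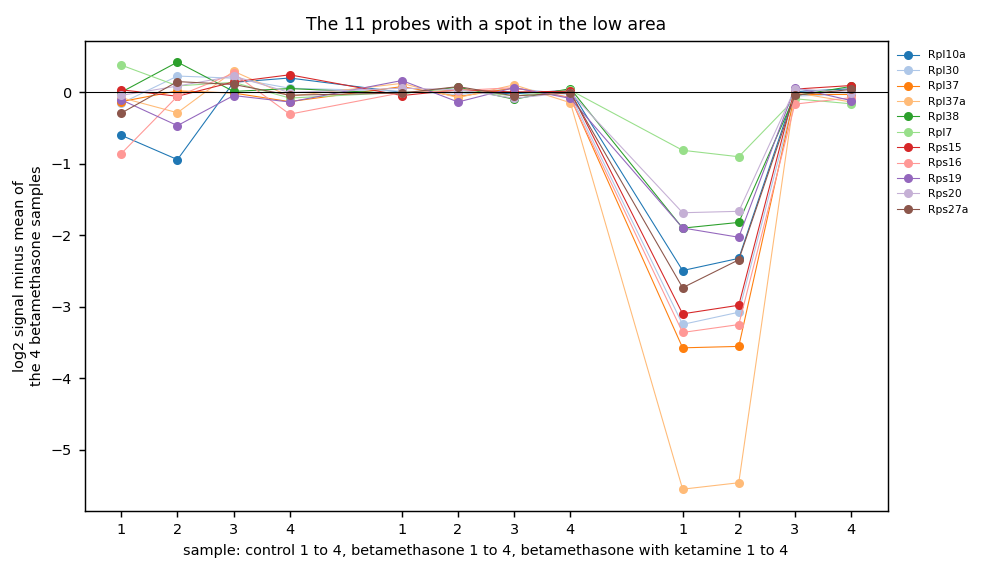
Log2 signal of the 11 probes with a spot in the low area, relative to each probe's mean over the 4 betamethasone samples (y axis), in the 12 samples (x axis, by group and replicate number); lines join the values of a probe and carry no order. Ketamine samples 1 and 2 are low for all 11 probes, with mean differences from −5.51 (Rpl37a) to −0.85 (Rpl7), and ketamine samples 3 and 4 are near 0.

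Other probes of the same genes, printed elsewhere, showed no such values. For 10 of the 11 genes there were 16 further tested probes, with ketamine estimates from −0.31 to 0.32, a median of 0.06 and 5 below 0. The Rpl30 probes A_44_P322451 and A_64_P011261 share a run of 40 bases, at rows 286 and 491. The first read 14.42, 14.37, 14.46 and 14.37 in betamethasone and 11.16, 11.33, 14.35 and 14.38 with ketamine. The second read 14.22, 14.20, 14.12 and 14.04, then 14.34, 14.62, 13.96 and 14.04. Of the near-identical Rpl37 probes printed above, A_64_P032688 at row 433 had a ketamine estimate of 0.32, where A_64_P052952 at row 275 had −1.80.

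The highest ketamine estimate was the mirror of a low betamethasone array. Rpl39, a small basic protein near the exit tunnel, was read by A_64_P011311 at 14.65, 14.96, 14.62 and 14.69 in control, 14.86, 14.91, 12.16 and 12.76 in betamethasone and 14.67, 14.89, 14.76 and 14.80 with ketamine. Betamethasone samples 3 and 4, which share an array, were low, and the other 10 samples lay within 14.62 to 14.96. This gave the lowest betamethasone estimate of any member (−1.06, SE 0.55) and the highest ketamine estimate (1.11, SE 0.55), both from the same 2 values. The spots around it had medians of 0.04 and 0.05, and it was in no area. The second Rpl39 probe had 0.20 and −0.24. Without the array of betamethasone samples 1 and 2, the low array was the only betamethasone array left. In that fit this Rpl39 probe was the member that passed in each of these comparisons. It was named after its values were seen.

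Among the 4 smallest p-values for ketamine, a single probe was higher. Rpl35a with A_64_P046998, at row 519, had 15.23, 15.29, 14.33 and 14.73 in betamethasone and 15.47, 15.78, 15.23 and 15.31 with ketamine (change 0.55, SE 0.22, limma adjusted p = 0.910). Betamethasone 3 and 4 were the low samples, and the groups overlapped. Its second tested probe, which shares a run of 21 bases with it, had −0.19, and the spots around the first had a median of 0.21. With within-array loess and array medians in place of Aquantile, the first probe turned to −0.04. Rpl7 with A_44_P453874 was the mildest member of the low area, at 14.57, 14.48, 15.29 and 15.22 with ketamine against 15.33 to 15.41 in betamethasone (change −0.49, SE 0.20). Its other probe had 0.00.

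The 10-spot probes show how far readings of the same sequence differed between places on an array. The part of position in these differences, beside other differences between spots, was not tested. Rps4x, the X-linked small-subunit protein, was read at 10 places between rows 9 and 444. On the array of betamethasone samples 1 and 2 its mean over both channels was 12.73, 12.72 and 12.74 at rows 9, 13 and 26, and 13.42 and 13.42 at rows 156 and 359. The range over the 10 spots was 0.70 there and 0.98 on the array of control samples 1 and 2, but 0.36 on that of control samples 3 and 4. In that last case control 3 had no value at rows 156 and 370, and control 4 alone ran from 12.60 to 13.16. On the array of ketamine samples 1 and 2 the order differed, with 12.98 at row 9, 12.34 at row 96 and 12.96 at row 156. Rows 156 to 370 were thus brighter than rows 9 to 26 on 4 of the 6 arrays, and not on that of ketamine samples 1 and 2. On the array of control samples 3 and 4, control 4 read 12.74, 12.71 and 12.60 at rows 9, 13 and 26. It read 12.85, 12.97 and 13.16 at rows 156, 359 and 370, where control 3 had only the spot at row 359.

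Single spots of Rps4x within a sample had in the median a larger SD than the sample means within a group. The SD over its spots within a sample ran from 0.037 (control 3, with 8 spots) to 0.364, with a median of 0.294. The SD of sample means within groups was 0.159. Each sample mean averages up to 10 spots, which lowers that SD, so these are unlike measures. Taken spot by spot, the betamethasone difference ran from −0.08 to 0.33 and the ketamine difference from −0.37 to 0.08, around averaged estimates of 0.07 (SE 0.16) and −0.18 (SE 0.16). Rpl15, a large-subunit protein, ranged over 0.45 to 0.84 log2 units within an array. Its spot differences ran from −0.17 to 0.38 for betamethasone and from −0.31 to 0.00 for ketamine. For Rpl15, the SD over spots had a median of 0.186 and the SD of sample means within groups was 0.147. Members with 1 spot have no such averaging. Over all 1390 probes with 10 spots, the median SD between spots was 0.142 to 0.251 in 10 samples, but 0.0739 and 0.0654 in ketamine 1 and 2.

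**Figure D4:**
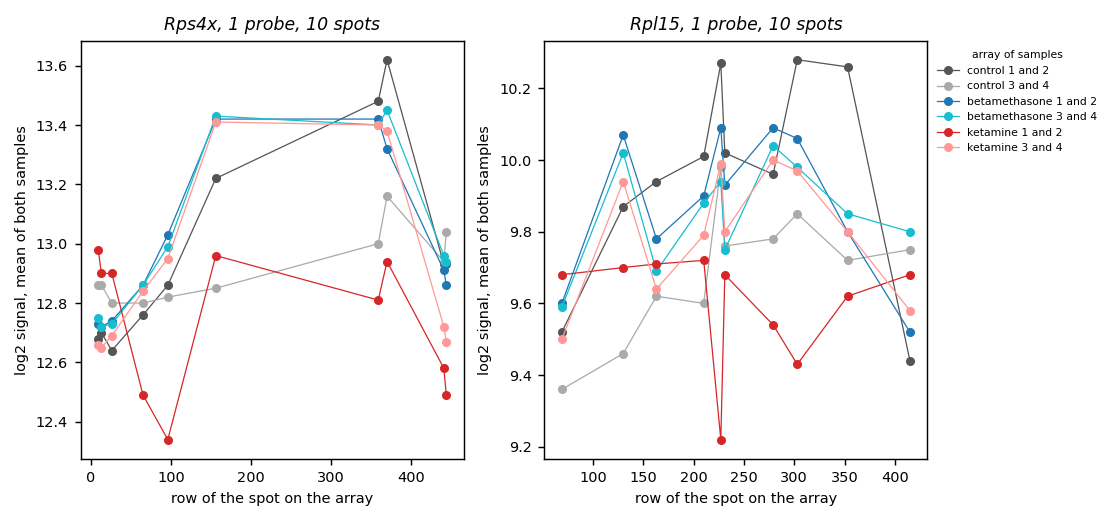
Log2 signal (y axis, mean of both samples on an array) of the 10 spots of the Rps4x probe and of the Rpl15 probe by row on the array (x axis), with a line for each of the 6 arrays. Rps4x spots at rows 156 to 370 are higher than those at rows 9 to 26 on 4 arrays, by up to 0.98 on the array of control samples 1 and 2, but not on the array of ketamine samples 1 and 2. On the array of control samples 3 and 4, the Rps4x points at rows 156 and 370 are control 4 alone.

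Across the members, changes followed those of the spots around them. For the 164 spots of tested members, the correlation between a spot's own difference and the median of the non-member spots within 5 rows and 5 columns was 0.53 for betamethasone, 0.68 for ketamine and 0.73 for both against control. Without the spots in areas (n = 150) it was 0.54, 0.64 and 0.57. These are descriptions, since the points share arrays, and the neighbour medians share spots where members are close. Relative to these neighbours the member spots had a median of 0.06 for betamethasone and −0.07 for ketamine, with 116 of 164 spots below their neighbours for ketamine. Without the spots in areas, 103 of 150 were below for ketamine, with a median of −0.06. Rpl15 and Rps4x enter all these figures with 10 spots each, every one below its neighbours for ketamine, so spots are not separate members.

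Genes with several probes allow each change to be read more than once. There were 46 genes with at least 2 tested probes, 111 probes in all. The probes of a gene spanned a median of 0.23 log2 units for betamethasone and 0.20 for ketamine. They spanned more than 0.5 in 11 genes for betamethasone and in 12 for ketamine, and 9 of these 12 had a probe with a spot in an area. All probes of a gene had the same sign in 26 of the 46 genes for betamethasone and in 14 for ketamine. Among the genes whose probes were closest for ketamine were Rpl31 (−0.18 and −0.18), Rpl8, Rps27 and Rplp0. Of 89 pairs of probes for the same gene, 14 shared a run of at least 20 bases. The differences between their estimates had a median of 0.14 for ketamine, against 0.17 in the other pairs, and of 0.20 and 0.21 for betamethasone. Sharing sequence therefore went with little closer estimates. The largest difference for betamethasone in a sharing pair was in Rpl26, where probes with a common run of 52 bases gave −0.21 and 0.79. The second has a spot in an area on the array shared by control samples 1 and 2, and read 14.61 and 15.23 in control 1 and 2 against 15.70 and 15.71 in control 3 and 4.

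**Figure D5:**
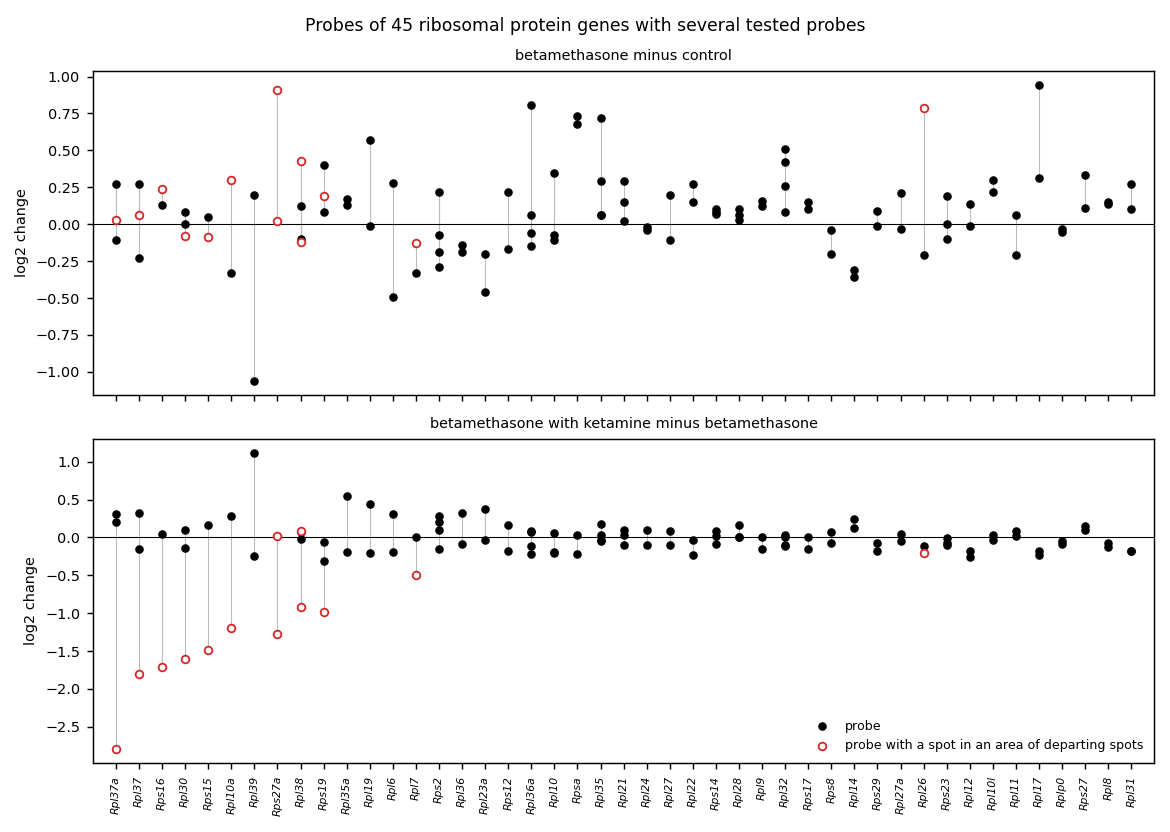
Log2 change (y axis) of each tested probe of 45 of the 46 genes with several tested probes (x axis, ordered by the span of their ketamine estimates), for betamethasone minus control above and betamethasone with ketamine minus betamethasone below. Vertical lines join the probes of a gene and open red points have a spot in an area of departing spots. The lowest points below, down to −2.79 for Rpl37a, are open red points, and the remaining probes of those genes lie between −0.31 and 0.32.

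The stalk proteins, which recruit the elongation factors to the ribosome, gave small estimates in every comparison. Rplp0, the base of the stalk, had 2 probes with a common run of 41 bases and changes of −0.05 (SE 0.11) and −0.03 (SE 0.14) for betamethasone, and −0.09 and −0.05 for ketamine. With A_43_P14914 it read 16.49, 16.95, 16.58 and 16.94 in control, 16.36, 16.82, 16.67 and 16.89 in betamethasone, and 16.45, 16.81, 16.46 and 16.65 with ketamine. The groups overlapped, and the Cy5 sample was the higher on each array. Rplp1 read 16.13, 16.26, 16.21 and 16.42 in control and 16.02, 16.01, 16.16 and 16.12 in betamethasone (change −0.18, SE 0.10), with 0.14 for ketamine. Rplp2 had −0.16 (SE 0.15) and 0.03.

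Against control, the animals with both exposures also had no ribosomal protein probe past the threshold, in a comparison that shares its control samples with that of betamethasone alone. In betamethasone with ketamine minus control, limma called 0 of 146 members and 17 of 21533 probes (0.0789%), with 25 members (17.1%) and 2982 probes (13.8%) at an unadjusted p under 0.05. Of these members 16 were higher (9.6% of all probes) and 9 lower (4.25% of all probes). The median change was 0.03 for the members and 0.07 for all probes. The samples of the groups did not overlap for 16 members (11%) and for 15.6% of all probes, with 12 members higher (11.9% of all probes) and 4 lower (3.66% of all probes). Rpl32, Rpsa and Rpl17, with the probes named above, had 0.54 (limma adjusted p = 0.0865), 0.71 (0.141) and 0.71 (0.187). Rpl19, an intersubunit bridge protein, completed the 4 smallest p-values: with A_64_P029701 it read 14.49, 15.08 and 15.51 in control 1, 2 and 4, where control 3 was an outlier spot, 15.45 to 15.82 in betamethasone and 15.92 to 16.25 with ketamine. Its change was 1.01 (SE 0.25, limma adjusted p = 0.187), and its second probe had −0.21.

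After Aquantile, which equalizes the distribution of mean signal between arrays, the samples had similar ribosomal protein signals as a whole. Over the 130 members measured in all 12 samples, the median deviation from each probe's mean was 0.00, 0.09, −0.06 and −0.09 in control 1 to 4, 0.09, 0.08, 0.04 and 0.03 in betamethasone, and −0.05, 0.04, 0.06 and 0.02 with ketamine. The groups overlapped. The scatter of the members around that median was not similar, with an SD of 0.74 and 0.72 in ketamine 1 and 2 and of 0.19 to 0.36 in the remaining 10 samples. The size of the members' median change rested on the scaling. With array medians in place of Aquantile, the member median was 0.56 for betamethasone (all probes 0.05) and −0.60 for ketamine (all probes −0.07). Without loess and with 75th percentile scaling it was 0.29 and −0.18, where all probes had −0.22 and 0.35. Relative to all probes, the member median was higher for betamethasone and lower for ketamine under each of these scalings. Most members lay above the 75th percentile of the tested probes' means, so all probes are not matched to them in signal. The part of signal level in these medians was not tested. In the deposited value table both medians for betamethasone were below 0, at −0.89 for the members and −1.10 for all probes.

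Genes that work with the ribosome did not pass the threshold either. Of 23 listed translation partners, 22 genes with 33 probes were tested, and of 58 listed genes of ribosome biogenesis, 53 genes with 62 probes. limma called 0 of these probes in each comparison. At an unadjusted p under 0.05, 5 translation probes (3 higher) and 8 biogenesis probes (4 higher) differed for betamethasone, out of 33 and 62, where 11.4% of all probes did. For ketamine the counts were 2 and 0, beside 3.16% of all probes. For both exposures against control they were 3 and 13, beside 13.8% of all probes. The medians of the translation list were −0.03 for betamethasone and 0.14 for ketamine, and those of the biogenesis list were 0.00 and 0.08. The smallest p-values for betamethasone belonged to probes of Nhp2, a protein of the box H/ACA particles (0.46, SE 0.09, limma adjusted p = 0.0801), Nop16 (0.81, SE 0.20) and Nop58 (−0.55, SE 0.15), and to Eif3h, a subunit of an initiation factor (0.54, SE 0.14), Eif4b (0.40, SE 0.12) and Pabpc1, the poly(A)-binding protein (−0.32, SE 0.12). For ketamine they belonged to probes of Utp14a (−0.79), Taf1b (−0.91) and Noc2l (−0.76), and to Eef1d (0.30), Nap1l1 (−1.26) and Tpt1 (0.38), with limma adjusted p-values of 0.91. Utp14a, Taf1b, Noc2l and Nap1l1 have a spot in an area on the array of ketamine samples 1 and 2, as do the low ribosomal protein probes, and the Nop16 probe has one in an area on the array of control samples 1 and 2. Other probes of these genes gave other values. For betamethasone, the remaining Eif3h probes had 0.13 and 0.00 and the remaining Eif4b probe had −0.25. For ketamine, those of Utp14a, Taf1b and Eef1d had 0.04, −0.02 and 0.01, and those of Tpt1 had 0.15 and 0.18. Against control, animals with both exposures had Ltv1 (0.45), Nhp2 (0.34) and Nop16 (0.72), and Eif3h (0.65), Hnrnpa1 (0.41) and Nap1l1 (−1.54) as the smallest p-values, where the remaining Eif3h probes had 0.14 and 0.27 and the remaining Hnrnpa1 probe had 0.03.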

How the data were processed

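Channel signals and local backgrounds were deposited as intensity values, made with Feature Extraction 11.5.1.1 (control arrays) and 11.0.1.1 (the others) per the file headers; the submitters' processing notes name 10.7.3.1. Foreground means were corrected with median local backgrounds by normexp (offset 50), normalized within each array by loess and across arrays by Aquantile, and the log2 values given here were computed from the deposited intensity values. Outlier spots were dropped and spots of a probe averaged. Probes well above background in at least 3 samples of a group, with 3 values per group, were tested with limma 3.58.1 (R 4.3.3, statmod 1.5.0), array as a random block and dye as a term. The deposited value table held a ratio of each spot to the column median, per its match with the scanner values, with the columns of control 1 and 2 exchanged with those of control 3 and 4; it served as an alternative. The number of arrays limits the precision. The fit was tested on simulated data.

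The rule for members used gene names only, but it and the gene lists were set with earlier results of these data known. The text names the 4 smallest p-values per comparison, the 3 highest and lowest means, genes whose probes differ most or least for ketamine, the 10-spot probes, stalk proteins, Rpsa, tissue-restricted paralogs, and the 3 smallest p-values of each list; some members that meet this rule are not reported here. Alternatives covered scaling, filter, block, dye, spots in areas, probe choice, and each sample or array left out.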

Additional observations from a re-analysis of the deposited data

Results flagged for a closer look

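In 4 cases among the probes named by rule, 1 sample of a group of 4 stood apart from the other 3, out of 117 groups checked. Chance flags about 1 in 20 groups, so this many flags is no more than chance would give. Control 2 was high for Rpl32 A_64_P151985, at 14.33 against 14.20 to 14.21. Ketamine 3 was low for the dim Rpl28 probe A_44_P778019, at 7.77 against 7.86 to 7.87. Control 4 was low for Rpl37 A_64_P035093, at 13.56 against 13.89 to 13.93. Ketamine 4 was low for the untested Rpl39l A_64_P112305, at 7.35 against 7.49 to 7.52.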

How the results depend on the processing

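Counts of members past the threshold (0 in each comparison) depended on the fit. The share of all tested probes follows each in parentheses. For betamethasone minus control they were 1 without the filter on dim probes (0.286%), 8 without the array block (4.79%), and 3 with only the 2 groups compared (0.992%). With a single replicate left out they were 0, except 1 without ketamine replicate 1 (0.358%). Leaving out an array gave 2 for control samples 1 and 2 (1.44%), 7 for control samples 3 and 4 (1.72%), 1 for betamethasone samples 1 and 2 (0.0935%), 7 for ketamine samples 1 and 2 (2.37%) and 8 for ketamine samples 3 and 4 (2.02%). For ketamine after betamethasone, leaving out an array gave 1 for betamethasone samples 1 and 2 (0.0561%) and 18 for ketamine samples 3 and 4 (11.9%). For both exposures against control they were 1 with processed signals (0.729%), 1 without the filter (0.143%) and 7 without the array block (4%). Leaving out an array there gave 1 for control samples 1 and 2 (1.11%), 8 for control samples 3 and 4 (1.91%), 1 for ketamine samples 1 and 2 (0.52%) and 22 for ketamine samples 3 and 4 (16.2%). A fit without an array left its group with only the other array. The cause of these changes in count was not tested. In the deposited value table, 125 and 131 members passed against control, all lower, beside 95.2% and 93.8% of all probes, with medians of −0.89 and −0.96. Re-centring that table on its column medians changed nothing, since its columns were already scaled to their medians. There Rpl32 (−0.54 and −0.52), Rpsa (−0.36 and −0.33), Rpl17 (−0.10 and −0.35), Rpl36a (−0.22) and Rpl19 (−0.02) reversed. Re-centred on spots with a value in all samples, a setting chosen after seeing the data, its medians were 0.24 and 0.17. Other scalings gave medians of 0.56, 0.29 and 0.24 for betamethasone (array medians of A, no loess, processed signals), −0.60 and −0.18 for ketamine (array medians of A, no loess), and −0.04 and 0.20 for both exposures (array medians of A, processed signals). Without the array of control samples 3 and 4 the latter median was −0.09. With array medians of A, Rpl35a reversed for ketamine, to −0.04. Same-numbered samples of different groups correlated between −0.138 and 0.0412 after group and dye were taken out. These values gave no sign of pairing by number, but cannot exclude it, since samples of a group also share arrays. With the replicate block 0 members passed in each comparison, and the median changes were 0.08, −0.04 and 0.03.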
